A study of Mus musculus with 35 samples.

Results

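Macs that fuse into multinucleated cells, and osteoclasts above all, use a small set of genes that other macs hold low. Bulk RNA-seq counts from sorted hepatic macs of mice with metabolic associated fatty liver disease (MAFLD) were examined for 8 of them, Dcstamp, Ocstamp, Atp6v0d2, Acp5, Ctsk, Oscar, Itgb3 and Nfatc1, of 54735 gene symbols counted. The 8 symbols were chosen on their CPM (counts per 1000000 counts) in these same groups, so their levels and fold changes are a description and carry no test. All 8 had a row in every sample. 7 of the 8 passed the filter on low counts (over 1 CPM in at least 5 samples), and Ctsk passed it only through the 6 CLEC4F- samples.

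The 35 samples were macs of male C57Bl/6J mice in 6 groups. Resident Kupffer cells (ResKCs, CLEC4F+TIM4+) came from mice fed a standard diet (SD) for 12 weeks (n = 7) or 24 weeks (n = 6), or fed a Western diet (WD), rich in fat and cholesterol and given with sugars in the drinking water, for 12 weeks (n = 5) or 24 weeks (n = 6). Monocyte-derived Kupffer cells (moKCs, CLEC4F+TIM4-, n = 5) and macs without CLEC4F (CLEC4F- macs, n = 6) came from WD-fed mice at 24 weeks. No SD-fed sample of the last 2 populations was analysed here, so among moKCs and CLEC4F- macs diet and cell type cannot be told apart. The diet field of the 5 ResKC samples of the WD at 12 weeks reads standard diet while their titles and descriptions give the WD, and the titles were followed. Mice entered the diets at 5 weeks of age. The populations were sorted from several mice each, but the labels do not tie a sample to a mouse or say whether mice were pooled, so p-values measure the spread between samples, which may be technical. In sorted bulk cells, fewer cells that make a transcript and less of it per cell cannot be told apart.

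Osteoclasts arise from myeloid precursors under CSF1 and RANKL. RANK signalling, helped by receptors that pair with the adaptors DAP12 (Tyrobp) or FcR gamma (Fcer1g), leads to induction of NFATc1, which together with AP-1, PU.1 and MITF turns on genes for cell fusion, acid secretion and matrix digestion. Fusion needs the multipass membrane proteins DC-STAMP and OC-STAMP and involves the V-ATPase subunit d2 (Atp6v0d2). Cathepsin K (Ctsk) and tartrate-resistant acid phosphatase (Acp5) digest or process bone matrix, integrin beta 3 (Itgb3) anchors the cell to it, and OSCAR is a collagen-binding costimulatory receptor. Macs outside bone share parts of this programme, for example when they form giant cells or load lipid.

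The total per sample lay between 11568590 and 15163845 counts, which sets a 3-count floor of 0.193 to 0.263 CPM after TMM scaling. Intervals and floors of this kind cover counting error alone. The sort was checked on its own markers: Timd4 ranged from 546 to 1356 CPM in the 4 ResKC groups and from 2.85 to 30.3 CPM in moKCs and CLEC4F- macs, and Clec4f from 7317 to 17474 CPM in ResKCs and moKCs. In 5 of 6 CLEC4F- samples Clec4f lay between 294 and 1537 CPM, and replicate 4 held 5482 CPM. In moKC replicate 1, Mmp9 was at 509.8 CPM against 10.1 to 20.7 CPM in the other moKCs. Gpnmb, which marks lipid-loaded macs among others, was highest within its group in WD ResKC replicate 6 at 24 weeks (494 CPM) and in SD ResKC replicate 7 at 12 weeks (36.5 CPM). Each of these 4 libraries was also left out. Sample names inside the deposited tables follow 2 naming schemes, a larger one of 22 samples and a smaller one of 13, and what they stand for is not stated. All SD samples of 24 weeks and all WD samples of 12 weeks were in the larger scheme.

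The fusion genes formed a ladder across the 6 groups. Dcstamp, Ocstamp and Atp6v0d2 were near or below a few CPM in SD ResKCs, higher in WD ResKCs, and highest in CLEC4F- macs. For each of the 3, the order of group means was CLEC4F- macs, moKCs, WD ResKCs at 24 weeks, WD ResKCs at 12 weeks, SD ResKCs at 12 weeks and SD ResKCs at 24 weeks. Between neighbours in that order the sample ranges overlapped, except for Dcstamp between WD and SD ResKCs at 12 weeks.

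**Figure D1:**
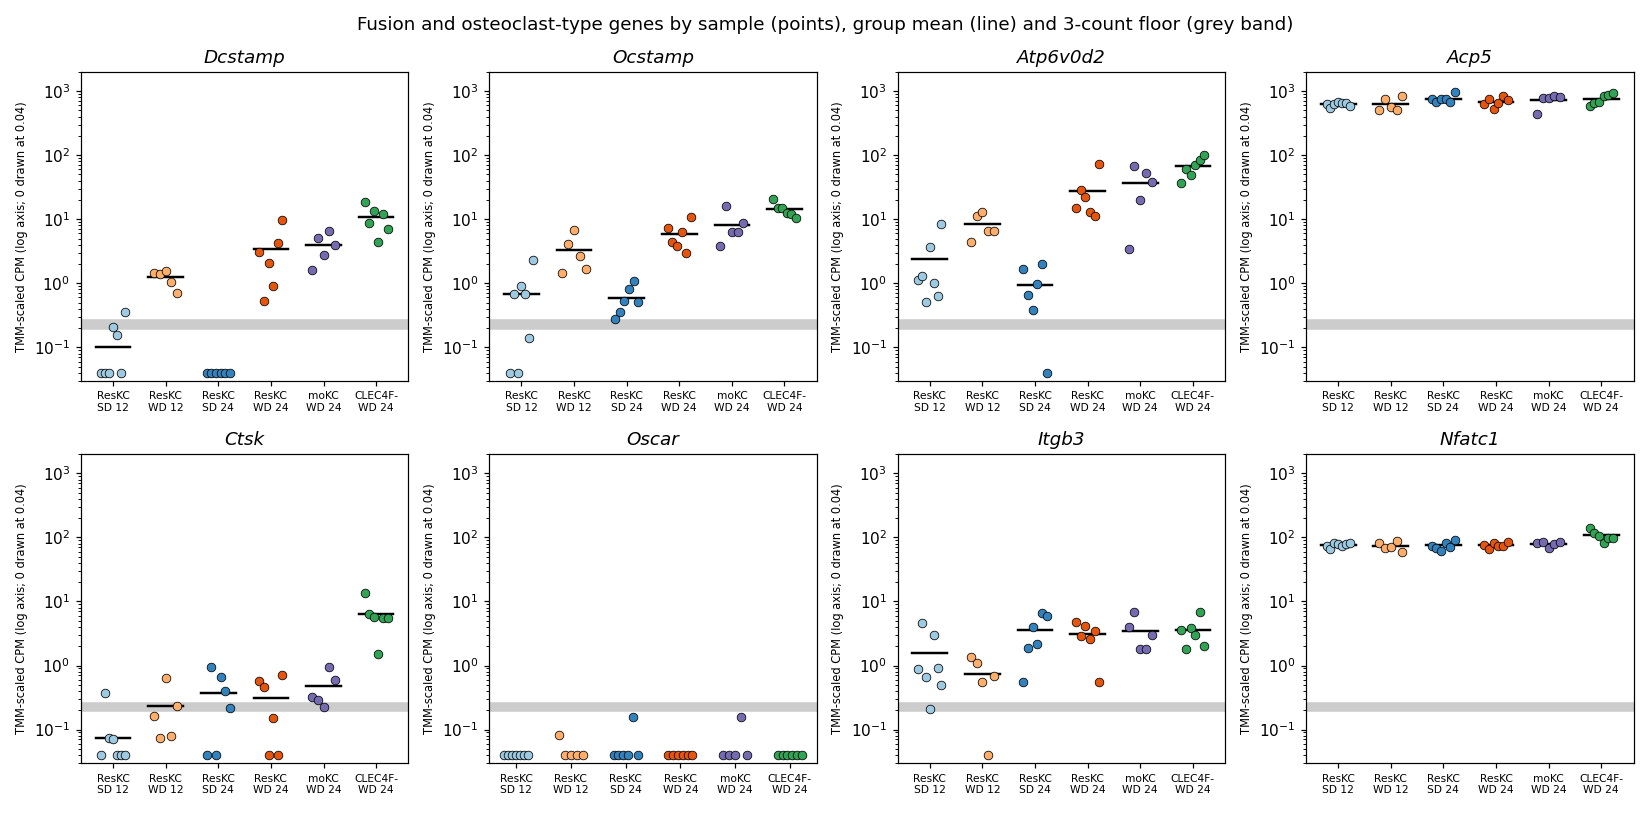
TMM-scaled CPM (log axis, 0 drawn at 0.04) of the 8 genes in each of 35 samples (points), with the group mean (line) and the 3-count floor (grey band). Dcstamp, Ocstamp and Atp6v0d2 climb from SD ResKCs to CLEC4F- macs, Ctsk exceeds 1 CPM only in CLEC4F- macs, Acp5 and Nfatc1 stay at one height among ResKCs and moKCs, and Oscar stays below the floor in all 35 samples.

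Dcstamp (chr15:39745930-39760938 on mm10, plus strand) encodes the dendritic cell-specific transmembrane protein without which osteoclasts and giant cells stay mononuclear. No read was counted for it in any of the 6 SD ResKC samples at 24 weeks. In SD ResKCs at 12 weeks 4 of 7 samples were at 0 and the other three at 0.153, 0.211 and 0.354 CPM, so this group lay near the floor, with 10 counts in all. The 5 WD ResKC samples at 12 weeks held 0.693, 1.04, 1.41, 1.46 and 1.57 CPM, each above every SD sample of that time.
At 24 weeks WD ResKCs ranged from 0.536 to 9.77 CPM with a median of 2.59, replicate 6 being the highest. The 5 moKC samples held 1.61, 2.77, 3.95, 5.05 and 6.51 CPM. CLEC4F- macs ranged from 4.38 in replicate 4 to 18.6 CPM in replicate 1, with a median of 10.4, and so overlapped with both CLEC4F+ populations of WD-fed mice.

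Ocstamp (chr2:165393760-165400405, minus strand), the osteoclast stimulatory transmembrane protein that partners DC-STAMP in fusion, followed the same course at a somewhat higher level. Its mean was 0.598 ± 0.308 CPM (SD, n = 6) in SD ResKCs at 24 weeks, 0.680 ± 0.818 (n = 7) in those at 12 weeks, 3.34 ± 2.203 (n = 5) in WD ResKCs at 12 weeks and 5.93 ± 2.86 (n = 6) in WD ResKCs at 24 weeks. It reached 8.26 ± 4.70 CPM (n = 5) in moKCs and 14.3 ± 3.72 CPM (n = 6) in CLEC4F- macs. The lowest CLEC4F- sample stood at 10.3 CPM, just under the highest WD ResKC sample at 10.8 CPM, and moKC replicate 2 at 16.1 CPM lay inside the CLEC4F- range.

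Atp6v0d2 (chr4:19876841-19922605, minus strand) encodes the d2 subunit of the membrane part of the proton pump, which osteoclasts use in place of the general d1 subunit and need for fusion. It was the most abundant of the 3, at 66.9 ± 23.6 CPM (SD, n = 6) in CLEC4F- macs, 36.4 ± 25.7 (n = 5) in moKCs, 27.2 ± 23.5 (n = 6) and 8.33 ± 3.66 (n = 5) in WD ResKCs at 24 and 12 weeks, and 0.943 ± 0.762 (n = 6) and 2.37 ± 2.85 (n = 7) in SD ResKCs at 24 and 12 weeks.
In 3 groups the extreme library is given apart from the rest, though none of the 3 was an outlier by Dixon's criterion, used below. WD ResKC replicate 6 held 73.3 CPM while the other five lay between 11.1 and 28.4 CPM, moKC replicate 1 held 3.42 CPM while the other four lay between 20.2 and 68.8 CPM, and SD ResKC replicate 7 at 12 weeks held 8.36 CPM while the other six lay between 0.516 and 3.73 CPM. These are 3 of the 4 libraries named above, and Gpnmb was likewise highest, lowest (32.9 CPM) and highest of its group in them.
Its general counterpart Atp6v0d1 showed no such ladder, with group means from 126.5 to 145.8 CPM. Per 1000 exonic bases, the level of Atp6v0d2 in CLEC4F- macs was 24.65 CPM against 70.6 CPM for Atp6v0d1, and in SD ResKCs at 24 weeks 0.347 against 80.6 CPM.

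Ctsk (chr3:95499256-95509362, plus strand), the collagen-cleaving cysteine protease cathepsin K, behaved differently from the fusion genes. CLEC4F- macs held 1.53 CPM in replicate 4, between 5.48 and 6.33 CPM in 4 samples and 13.4 CPM in replicate 1. None of the other 29 samples exceeded 0.953 CPM, and group means there ran from 0.0742 to 0.474 CPM, with at most 13 counts in a sample and no step from SD to WD ResKCs at 24 weeks (0.367 ± 0.375 CPM and 0.316 ± 0.307 CPM, n = 6 each). It was the lowest of the cathepsins compared here. Per 1000 exonic bases, CLEC4F- macs held 4.202 CPM of Ctsk, 44.0 CPM of cathepsin L (Ctsl), 2068 CPM of cathepsin B (Ctsb) and 3142 CPM of cathepsin S (Ctss).

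Acp5 (chr9:22126727-22135711, minus strand), the tartrate-resistant acid phosphatase used as an osteoclast stain, was high in every mac population. Group means ran from 627 ± 45.4 CPM (SD, n = 7) in SD ResKCs at 12 weeks to 759.6 ± 138 CPM (n = 6) in CLEC4F- macs, and each group's range overlapped with each other's. The lowest of all 35 samples was moKC replicate 1 at 432 CPM and the highest was SD ResKC replicate 6 at 24 weeks at 974 CPM. A noncoding transcript, 6530413G14Rik, overlaps Acp5 on the opposite strand, and since the strand setting of the counting is not stated, reads of the pair cannot be told apart.

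Oscar (chr7:3609813-3616157, minus strand), the collagen-binding receptor, had 5 counts in the whole series. They were 1 count in a WD ResKC sample at 12 weeks, 2 in an SD ResKC sample at 24 weeks and 2 in a moKC sample, all at 0.159 CPM or less. CLEC4F- macs had 0 counts in 6 of 6 samples, which allows up to 0.242 CPM in the shallowest of them. A difference in Oscar between groups was not detectable at this depth.

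RefSeq promoter sequence was at hand for 3 of the 8 genes and none of the 3 fusion genes. The 3 are Ctsk, over 1 CPM in CLEC4F- macs alone, Acp5, high in all groups, and Oscar, below the floor. The 250 bases before the RefSeq start are printed in lower case (GRCm38.p6, gene strand, 5′ to 3′), with capitals marking matches on either strand to GGAAA (the NFAT core), GAGGAA (a PU.1 core) or the E-boxes CACGTG and CATGTG bound by MITF. The AP-1 letters TGANTCA were searched too and matched none of the 3. Ctsk is shown at chr3:95498960-95499209, Oscar at chr7:3616158-3616407, and Acp5, which has 3 RefSeq starts, at the start with most annotated transcripts near it, chr9:22131866-22132115.
Ctsk: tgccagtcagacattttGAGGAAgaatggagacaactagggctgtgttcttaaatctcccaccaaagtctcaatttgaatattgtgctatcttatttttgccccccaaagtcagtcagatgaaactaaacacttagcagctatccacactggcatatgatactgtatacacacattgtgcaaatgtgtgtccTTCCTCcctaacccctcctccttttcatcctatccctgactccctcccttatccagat
Oscar: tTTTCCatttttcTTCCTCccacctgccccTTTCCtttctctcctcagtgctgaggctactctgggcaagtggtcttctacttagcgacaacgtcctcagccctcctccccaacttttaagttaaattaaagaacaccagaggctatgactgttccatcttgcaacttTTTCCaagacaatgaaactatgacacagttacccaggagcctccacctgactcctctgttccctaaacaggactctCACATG
Acp5: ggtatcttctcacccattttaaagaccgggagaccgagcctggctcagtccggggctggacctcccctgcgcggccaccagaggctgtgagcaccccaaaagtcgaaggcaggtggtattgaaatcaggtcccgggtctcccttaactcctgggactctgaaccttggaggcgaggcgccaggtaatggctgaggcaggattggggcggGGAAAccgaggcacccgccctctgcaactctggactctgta
The Ctsk window held 2 GAGGAA matches and none of the other motifs, the Oscar window 3 GGAAA matches, 1 GAGGAA match and 1 E-box, and the Acp5 window shown 1 GGAAA match. Of the Acp5 windows not shown, that of the start at 22135746 held 1 GGAAA match. That of the start at 22130598, which holds an annotated exon, had 2 GGAAA matches and 1 E-box. Of 32851 RefSeq windows of the same length, 55.6% held GGAAA, 23.3% GAGGAA, 17.6% an E-box and 6.75% TGANTCA. These are matches of letters and say nothing of binding.

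Itgb3 (chr11:104608000-104670476, plus strand), the beta 3 chain that pairs with alpha v in osteoclast adhesion and with alpha IIb on platelets, was low and scattered. At 24 weeks the 4 groups had nearly equal means, 3.54 ± 2.42 CPM (SD, n = 6) in SD ResKCs, 3.07 ± 1.47 (n = 6) in WD ResKCs, 3.52 ± 2.11 (n = 5) in moKCs and 3.53 ± 1.85 (n = 6) in CLEC4F- macs. At 12 weeks it stood at 1.55 ± 1.65 CPM (n = 7) in SD and 0.747 ± 0.532 CPM (n = 5) in WD ResKCs, and the WD range overlapped with that of WD ResKCs at 24 weeks only through replicate 6 of the latter (0.551 CPM). Its partner Itgav had 373 ± 50.3 CPM in CLEC4F- macs and 285 ± 42.2 CPM in WD ResKCs at 24 weeks. The summed level of 6 platelet and megakaryocyte markers differed between the same groups, with Gp1bb at 0 throughout. In CLEC4F- macs it was 94.8 to 177 CPM, and in moKCs 51.6 to 132 CPM. WD ResKCs at 24 weeks held 16.8 to 99.5 CPM and the other groups 12.1 to 43.4 CPM. The sum does not show which of the genes carried it. Itga2b, the alpha IIb chain, was low and stood in another order. Per 1000 exonic bases its mean was highest in moKCs (0.229 CPM), before WD ResKCs at 12 weeks (0.160) and SD ResKCs at 24 weeks (0.158). CLEC4F- macs followed at 0.112, then SD ResKCs at 12 weeks (0.0461) and WD ResKCs at 24 weeks (0.02275). The part of platelet and megakaryocyte RNA in Itgb3 was not tested.

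Nfatc1, the factor at the top of the osteoclast programme, was present at one level in all CLEC4F+ cells. The 5 ResKC and moKC group means lay between 73.5 and 80.2 CPM. CLEC4F- macs held 107 ± 20.7 CPM (SD, n = 6), with a range of 81.1 to 142 CPM that overlapped with the WD ResKCs (67.1 to 83.5 CPM) and moKCs (69.5 to 84.96 CPM) only through replicate 4, the sample with most Clec4f. An antisense gene (AC123818.1) overlaps Nfatc1, and without a stated strand setting their reads cannot be told apart. Among its relatives, Nfatc3 differed little between CLEC4F- macs and WD ResKCs at 24 weeks (62.5 ± 9.88 CPM against 63.3 ± 4.67 CPM, log2 fold change -0.02 ± 0.10 SE, adjusted p = 0.921). Nfatc2, in contrast, was 20.6 ± 11.8 CPM in CLEC4F- macs and 0.549 ± 0.383 CPM in WD ResKCs (log2 fold change 5.19 ± 0.59 SE, adjusted p = 2.09e-08, every CLEC4F- sample at 5.98 CPM or more and every WD ResKC sample at 1.20 CPM or less). Nfatc4 reached at most 8 counts in any sample and was not tested.

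The first contrast asked how macs without the Kupffer cell marker differ from ResKCs, both from WD-fed mice at 24 weeks. 3 of the 8 genes passed the limits (absolute log2 fold change over 1 and edgeR adjusted p under 0.05) upward, where 6.04% of the 13421 genes tested did so. They were Ctsk (log2 fold change 4.27 ± 0.76 SE), Dcstamp (1.64 ± 0.52) and Ocstamp (1.27 ± 0.48). Atp6v0d2 had a fold change of the same size but missed the limits (1.30 ± 0.54), and Nfatc1 (0.50 ± 0.10), Itgb3 (0.20 ± 0.59) and Acp5 (0.14 ± 0.14) stayed below the fold limit. For Ctsk alone, 1 of the 8, every CLEC4F- sample lay above every WD ResKC sample, as for 7.18% of all genes. Since these contrasts chose the genes, nothing is read from the counts. Without CLEC4F- replicate 1, which held the most Dcstamp, Ocstamp, Ctsk and Nfatc1, Ctsk was the only member past the limits, at a log2 fold change of 3.93, with Dcstamp at 1.42 and Ocstamp at 1.14. Without WD ResKC replicate 6 Atp6v0d2 joined the other three at 1.90, and Dcstamp stood at 2.30. When 10 stress-response genes (immediate-early and heat-shock) entered the fit as a covariate Dcstamp missed the limits and Atp6v0d2 passed them, and with no filter on low counts Ocstamp missed them.

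Against moKCs of the same diet and time, 1 of the 8 genes passed the limits upward in CLEC4F- macs, Ctsk at 3.73 ± 0.79 SE on the log2 scale, where 2.71% of all genes did. Ctsk was again the 1 member whose samples did not overlap, as for 3.96% of all genes. Dcstamp (1.43 ± 0.55), Atp6v0d2 (0.88 ± 0.57), Ocstamp (0.79 ± 0.50) and Nfatc1 (0.42 ± 0.11) had positive fold changes within the limits. Without CLEC4F- replicate 4, and also without all 4 libraries named above, Dcstamp passed as well. Between moKCs and WD ResKCs, both CLEC4F+, 0 of the 8 passed and 0 were free of overlap, where 0.536% and 1.04% of all genes were. Their log2 fold changes lay between 0.08 ± 0.11 SE for Nfatc1 and 0.54 ± 0.81 SE for Ctsk. Without WD ResKC replicate 6 they were 0.86 for Dcstamp and 1.02 for Atp6v0d2, and 0 of the 8 still passed.

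**Figure D2:**
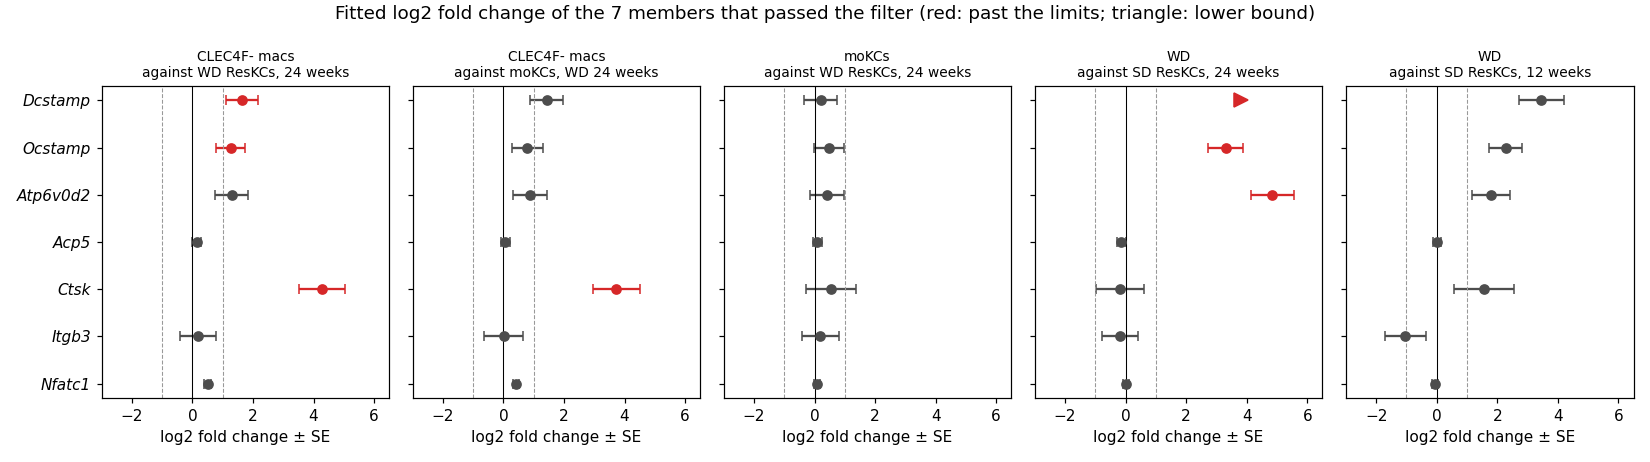
Fitted log2 fold change ± SE of the 7 members that passed the filter in 5 comparisons (first group minus second), red where past the limits, with dashed lines at the fold limit. The triangle marks the lower bound of 3.82 for Dcstamp against SD ResKCs with 0 counts. The 3 fusion genes are past the limits between the diets at 24 weeks, and Dcstamp and Ocstamp also in CLEC4F- macs against WD ResKCs. Ctsk is past them only in the comparisons of CLEC4F- macs, and Acp5 stays between -0.14 and 0.14.

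The diet contrast within ResKCs at 24 weeks was the largest for the fusion genes. Every WD sample lay above every SD sample for 3 of the 8, Dcstamp, Ocstamp and Atp6v0d2, as for 2.19% of all genes, and the same 3 passed the limits upward, as 2.38% of all genes did. With the SD group at 0 counts, Dcstamp in WD ResKCs was at least 14.1-fold higher, taking the 3-count floor per library (0.244 CPM in the shallowest) in place of 0. Without WD ResKC replicate 6 the bound was 8.93-fold, from a mean of 2.18 CPM in the other five. Atp6v0d2 was higher by 4.84 ± 0.71 SE and Ocstamp by 3.31 ± 0.57 SE on the log2 scale, though Atp6v0d2 missed the limits by limma-voom and stood at 4.24 without WD ResKC replicate 6. With only these 2 groups in the fit Dcstamp missed the limits. Acp5 (-0.14 ± 0.14), Ctsk (-0.19 ± 0.80), Itgb3 (-0.20 ± 0.59) and Nfatc1 (0.02 ± 0.10) showed no comparable difference. The 3 WD samples of the larger naming scheme lay above the 6 SD samples, all of that scheme, for each of the 3 fusion genes, as for 5.27% of all genes, with means of 1.91 CPM for Dcstamp, 5.20 CPM for Ocstamp and 21.95 CPM for Atp6v0d2.

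At 12 weeks the same 3 genes already stood higher on the WD, by 3.46 ± 0.74 SE (Dcstamp), 2.27 ± 0.55 (Ocstamp) and 1.80 ± 0.62 (Atp6v0d2) on the log2 scale. Yet 0 of the 8 genes passed the limits in this contrast. The share of all genes past them was 0%, with 1172 of 13421 genes at an unadjusted p under 0.05, 16 genes past the limits by DESeq2 and 1 by limma-voom. By DESeq2 2 members passed, Dcstamp and Ocstamp, and by limma-voom 0. Only Dcstamp, 1 of the 8, was free of overlap, as were 0.283% of all genes.
This outcome rested on 1 control library. In SD ResKC replicate 7 Ocstamp was 2.34 CPM, Atp6v0d2 8.36 CPM and Gpnmb 36.5 CPM, all the highest of their group. Without it the highest SD values were 0.211 CPM for Dcstamp, 0.914 CPM for Ocstamp and 3.73 CPM for Atp6v0d2. The lowest WD values were 0.693, 1.46 and 4.38 CPM. Replicate 7 held the highest SD value of all 3 genes, so leaving it out could only widen these gaps, and nothing is read from them. The same 3 members then passed the limits that passed at 24 weeks (log2 fold changes 4.14 for Dcstamp, 3.02 for Ocstamp and 2.58 for Atp6v0d2), beside 0.485% of 13402 genes upward. For the same reason nothing is read from this count. Hepatocyte RNA was also highest of the group in that replicate (summed CPM of 8 genes 2782, against 280.0 to 1496 in the other six), and the summed CPM of 10 immediate-early and heat-shock genes was lowest (1473, against 4058 to 15473). Each list also entered a fit over all 35 samples as a covariate, but its part in the values of replicate 7 was not tested.

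From 12 to 24 weeks in WD ResKCs, 0 of the 8 passed the limits, where 0.693% of all genes passed in either direction. Log2 fold changes were 2.03 ± 0.69 SE for Itgb3, 1.70 ± 0.60 for Atp6v0d2, 1.47 ± 0.59 for Dcstamp and 0.83 ± 0.52 for Ocstamp. Without WD ResKC replicate 6 at 24 weeks they were 2.25, 1.11, 0.82 and 0.58 in the same order. In SD ResKCs over the same time 0 of the 8 passed, and 0% of all genes did by edgeR, with 1208 genes at an unadjusted p under 0.05, 8 genes past the limits by DESeq2 and 0 by limma-voom. The difference between the diet effects at 24 and 12 weeks passed for 0 of the 8 and for 0.0596% of all genes, at 3.05 ± 0.95 SE for Atp6v0d2 and 1.03 ± 0.80 SE for Ocstamp. Without SD ResKC replicate 7 at 12 weeks these were 2.26 and 0.29, and without WD ResKC replicate 6 at 24 weeks 2.45 and 0.78. By DESeq2 Dcstamp passed there, though its 24-week control group held 0 counts.

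Within the CLEC4F- macs the members did not rise and fall together. Replicate 1 held the highest Dcstamp, Ocstamp, Ctsk and Nfatc1 of the 6 samples and at the same time the lowest Atp6v0d2 (37.3 CPM) and Acp5 (593 CPM). Replicate 6 held the highest Atp6v0d2 (101 CPM) and Acp5 (939.6 CPM) and the lowest Ocstamp (10.3 CPM). Replicate 4 was lowest for Dcstamp, Ctsk and Nfatc1.
Samples 1 to 3 (larger scheme) lay above samples 4 to 6 (smaller scheme) without overlap for Ocstamp, with means of 16.9 and 11.7 CPM, and also for Ctsk (8.50 and 4.203 CPM) and Nfatc1 (122 and 92.5 CPM), as for 10.3% of all genes. They lay below them without overlap for Atp6v0d2 (48.7 and 85.2 CPM) and Acp5 (641 and 878 CPM), as for 10.5% of all genes. Monocyte markers differed too, with a summed CPM of 1017 to 1361 over 6 genes in samples 1 to 3 and 358 to 700.4 in samples 4 to 6. Within the larger scheme, CLEC4F- macs lay above WD ResKCs without overlap for Dcstamp, Ocstamp, Atp6v0d2, Ctsk and Nfatc1 (3 against 3 samples), as for 22.4% of all genes, and within the smaller one for Ctsk and Acp5 (3 against 3), as for 14.4% of all genes. A batch that the schemes may stand for and other differences between these samples cannot be told apart.

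**Figure D3:**
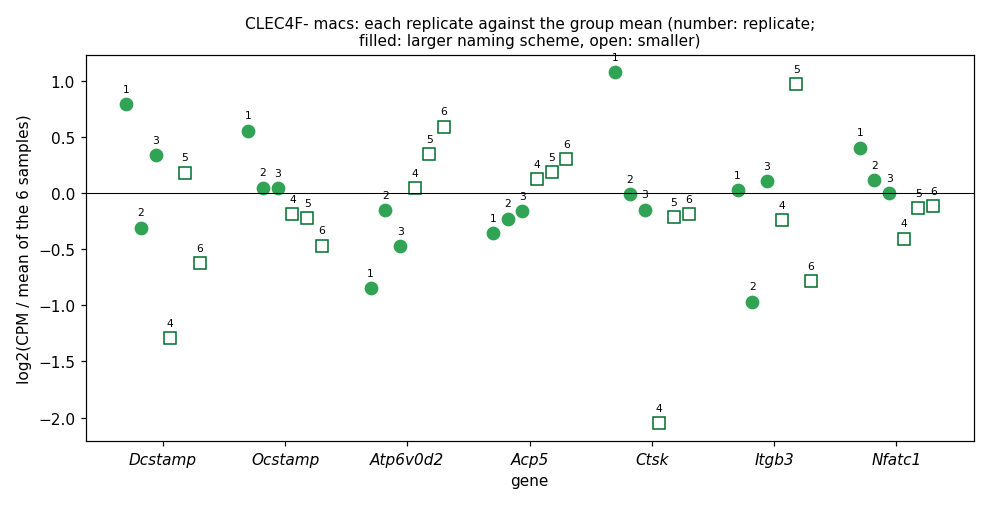
log2 of CPM over the mean of the 6 CLEC4F- samples, for each of the 7 members that passed the filter. Numbers name the replicates, filled circles the larger naming scheme and open squares the smaller one. Replicate 1 is highest for Dcstamp, Ocstamp, Ctsk and Nfatc1 and lowest for Atp6v0d2 and Acp5.

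Summed markers of other cells were also compared between CLEC4F- macs and WD ResKCs at 24 weeks. Monocyte genes stood at 358 to 1361 against 87.0 to 147 CPM over 6 genes. Conventional dendritic cell genes were at 21.2 to 172 against 10.1 to 20.8 CPM over 5 genes. T and NK cell genes were at 4.26 to 18.4 against 0.963 to 3.23 CPM over 5 genes. Resident Kupffer genes were lower, at 1308 to 12345 against 28001 to 35235 CPM over 8 genes. B cell genes were at 28.2 to 163 against 9.85 to 28.4 CPM over 4 genes, but WD ResKCs at 24 weeks had the lowest median of all groups there. The B cell sum was 16.3 to 52.0 CPM in moKCs and 20.4 to 55.4 CPM in SD ResKCs at 24 weeks. At 12 weeks it was 30.4 to 47.3 CPM in SD and 24.8 to 54.0 CPM in WD ResKCs. All of these overlapped with the CLEC4F- range. No gene of these lists was at 0 in all samples of either group. Neutrophil genes were 72.9 to 122 against 71.2 to 96.7 CPM over 7 genes, with Ly6g and Camp at 0 in both. The part of these cells in the levels of the members was not tested.

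The genes most like each member were sought over all 35 samples. Likeness was measured as the root-mean-square difference of log2 CPM centred per gene. For Dcstamp the 3 closest were Vsig8 (0.76), Fam20c (0.82) and Cd63 (0.82), with Ocstamp in rank 8 (0.94) and Atp6v0d2 in rank 11 (1.03) of the genes tested. Ocstamp was closest to the aminopeptidase Anpep (0.62), the tetraspanin Cd9 (0.69) and Fam20c (0.77). Atp6v0d2 was closest to the collagenase Mmp13 (0.73), to Cd63-ps (0.79) and to Cd63 (0.81). Cd63-ps is a pseudogene of Cd63, and reads may be split between the pair. Cd63, a lysosomal tetraspanin, stood in the same order of groups at 24 weeks, at 4.27 ± 1.03 CPM (SD, n = 6) in SD ResKCs, 76.9 ± 43.8 CPM (n = 6) in WD ResKCs, 135 ± 70.6 CPM (n = 5) in moKCs and 385 ± 79.1 CPM (n = 6) in CLEC4F- macs.
Ctsk had other neighbours, Runx2 (0.83), the annexin Anxa1 (0.86) and Ptchd1 (0.87). Runx2, best known as the osteoblast master factor, was at 5.01 ± 2.64 CPM in CLEC4F- macs and at 0.376 CPM or less on average in each other group. Dcstamp stood in rank 5596 and Ocstamp in rank 995 from Ctsk. The measure depends on the size of a change as well as its course, so genes that vary little can rank nearer. Acp5 stood in rank 4133 and Nfatc1 in rank 1313 from Ctsk. Itgb3 was closest to Hspa12b (0.98), Armcx2 (0.99) and Serpinh1 (1.00). No neighbours were sought for Acp5 and Nfatc1 themselves, which varied too little across groups.

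**Figure D4:**
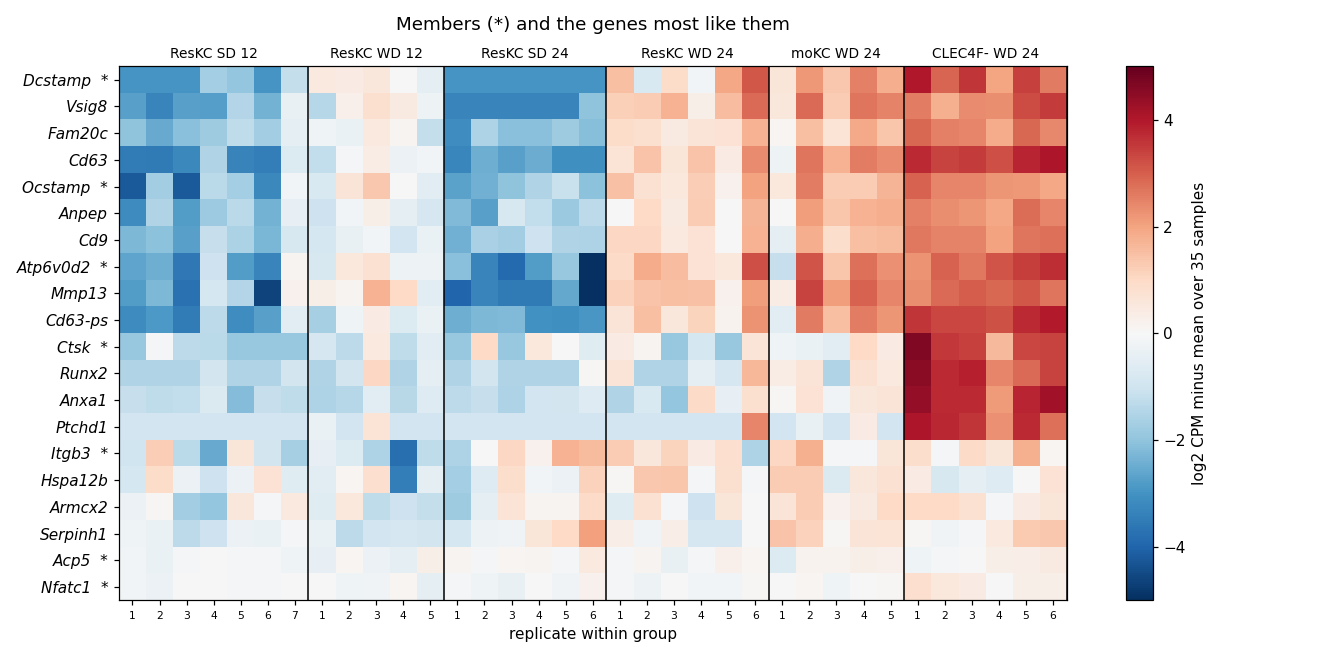
log2 CPM minus the gene's mean over 35 samples, for the 7 members that passed the filter (*) and the 3 genes most like each member that varied, columns being replicates within the 6 groups. The block around Dcstamp, Ocstamp and Atp6v0d2 is blue in SD ResKCs, least so in replicate 7 at 12 weeks, and red in CLEC4F- macs, while the Ctsk block is red in CLEC4F- macs and paler in replicate 4.

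The rest of the programme was followed in 68 other genes in 5 lists, 65 of which passed the filter, with Adam12, Calcr and Eomes below it. The lists were chosen with earlier results of these samples known. Between CLEC4F- macs and WD ResKCs 12 of the 65 rose and 1 fell, beside 6.04% and 4.39% of all genes, and the median log2 fold change over them was -0.09 beside 0.02 over all genes.
Of 14 macrophage fusion genes 3 rose and 0 fell, with a median of -0.43: the sheddase Adam8 (87.6 ± 23.0 against 18.3 ± 15.2 CPM, log2 fold change 2.26 ± 0.59 SE, adjusted p = 0.00301), Cd9 (1.598 ± 0.30 SE, adjusted p = 8.71e-05) and the lipid receptor Trem2 (1.52 ± 0.33 SE, adjusted p = 0.000446).
Of 14 receptor and signalling genes 3 rose and 1 fell, with a median of -0.09. They were Sirpb1a, which signals through DAP12 (47.8 ± 13.9 against 5.06 ± 1.78 CPM, log2 fold change 3.24 ± 0.28 SE, adjusted p = 1.59e-10), the Tec kinase (1.95 ± 0.32 SE, adjusted p = 9.06e-06), the exchange factor Vav3 (1.32 ± 0.15 SE, adjusted p = 1.52e-08) and, downward, Src, the kinase that osteoclasts need for their ruffled border (-1.15 ± 0.30 SE, adjusted p = 0.00256). Without WD ResKC replicate 6 Src no longer passed (-0.98). Tnfrsf11a, which encodes RANK, was 152 ± 17.2 CPM in CLEC4F- macs and 138 ± 9.17 CPM in WD ResKCs and did not pass (0.13 ± 0.08 SE, adjusted p = 0.234).
Of 13 activating transcription factors 3 rose and 0 fell, with a median of 0.34: Fos (1.83 ± 0.53 SE, adjusted p = 0.00728), Prdm1, which silences repressors of osteoclast formation (1.19 ± 0.22 SE, adjusted p = 6.39e-05), and Junb (1.11 ± 0.43 SE, adjusted p = 0.0469). Junb lost its call when any of 8 single libraries was left out (WD ResKC replicates 1 to 4 and 6, CLEC4F- replicates 1, 3 and 5), with fold changes between 0.79 and 1.12 on the log2 scale. When those 10 stress-response genes entered the fit as a covariate neither Fos (0.71) nor Junb (0.19) was called, and the summed level of these 10 genes was 2337 to 12036 CPM in CLEC4F- macs and 1097 to 5106 CPM in WD ResKCs. None of the 4 repressors tested passed, with a median of 0.06. Of 20 acid and matrix resorption genes 3 rose and 0 fell, with a median of 0.02: Gpnmb (1266 ± 314 against 191 ± 168 CPM, 2.73 ± 0.66 SE, adjusted p = 0.00132), the collagenase Mmp14 (257 ± 57.7 against 39.4 ± 10.8 CPM, 2.70 ± 0.34 SE, adjusted p = 1.04e-07) and Rab38 (2.15 ± 0.56 SE, adjusted p = 0.00292). The pump subunits of that list were not among them. Of the paralogs of members, Ctsl differed by -0.86 ± 0.13 SE (adjusted p = 2.02e-06), Ctsb by -0.48 ± 0.10 SE (adjusted p = 0.000338), Acp2 by -0.42 ± 0.06 SE (adjusted p = 3.21e-06), Ctss by 0.45 ± 0.08 SE (adjusted p = 2.76e-05) and Itgb5 by 0.29 ± 0.11 SE (adjusted p = 0.0335), none of them past the fold limit, while Itga2b, whose counts are few, at 0.609 ± 0.190 against 0.124 ± 0.167 CPM, passed at 2.18 ± 0.75 SE (adjusted p = 0.0233) and was lost without WD ResKC replicate 2, 3 or 5 (1.93 to 1.95).

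**Figure D5:**
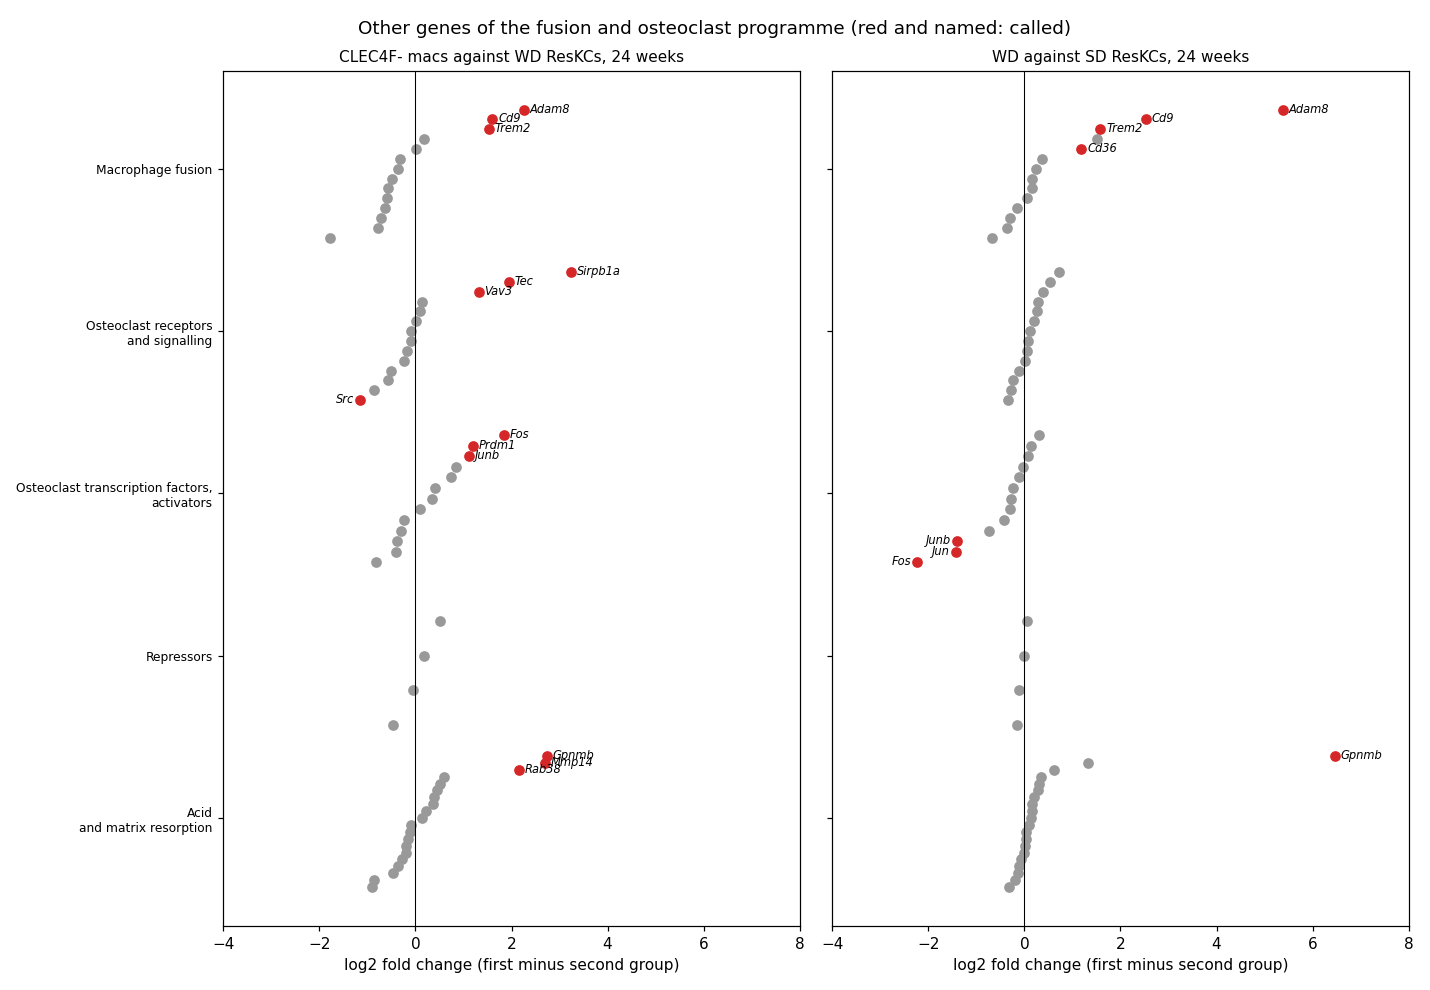
log2 fold change of the 65 other pathway genes tested (points, by list) in CLEC4F- macs against WD ResKCs and in WD against SD ResKCs, both at 24 weeks, with the called genes in red and named. The 13 called genes of the first comparison and the 8 of the second lie beyond a log2 fold change of 1.

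Against moKCs 7 of the 65 genes were higher in CLEC4F- macs and 1 was lower, beside 2.71% and 2.34% of all genes, with a median of -0.01 beside -0.01 over all genes. In the fusion list these were Adam8 (2.13 ± 0.63 SE, adjusted p = 0.0159), Cd9 (1.26 ± 0.32 SE, adjusted p = 0.00483), Trem2 (1.09 ± 0.35 SE, adjusted p = 0.0263) and, downward, Mmp9 (-5.88 ± 0.89 SE, adjusted p = 1.28e-05). The others were Sirpb1a (2.14 ± 0.28 SE, adjusted p = 2.01e-06), Tec (1.23 ± 0.33 SE, adjusted p = 0.00738), Gpnmb (2.23 ± 0.69 SE, adjusted p = 0.0217) and Mmp14 (1.65 ± 0.34 SE, adjusted p = 0.000700). Without moKC replicate 1, Gpnmb (1.94) and Trem2 (0.88) no longer passed, and they were lost without moKC replicate 3 as well (2.11 and 1.02), Trem2 also without CLEC4F- replicate 6 (1.02). Mmp9 passed without moKC replicate 1 too, at -2.97. By DESeq2 Adam8 and Mmp9 were not called. Nfatc2 was higher here too (4.05 ± 0.59 SE, adjusted p = 6.68e-06). Between moKCs and WD ResKCs 2 of the 65 rose and 0 fell, beside 0.536% and 0.849% of all genes. They were Sirpb1a (1.1 ± 0.28 SE, adjusted p = 0.0219) and Mmp9, the gelatinase (4.11 ± 0.81 SE, adjusted p = 0.00229), with a median of -0.04 beside 0.02. Sirpb1a lost this call without WD ResKC replicate 1 or 3 or moKC replicate 2, 4 or 5 (0.96 to 1.08). The call of Mmp9 rested on moKC replicate 1 and was lost without it (1.19). The paralog Itga2b was also higher in moKCs (3.21 ± 0.75 SE, adjusted p = 0.0129).

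Between the diets at 24 weeks 5 of the 65 genes were higher in WD ResKCs and 3 lower, beside 2.38% and 0.976% of all genes, with a median of 0.04 beside 0.00 over all genes. In the fusion list 4 of 14 rose and 0 fell: Adam8 (18.3 ± 15.2 against 0.444 ± 0.580 CPM, log2 fold change 5.38 ± 0.82 SE, adjusted p = 7.51e-05), Cd9 (2.53 ± 0.32 SE, adjusted p = 6.17e-06), Trem2 (1.58 ± 0.34 SE, adjusted p = 0.00316) and the fatty acid translocase Cd36 (1.19 ± 0.17 SE, adjusted p = 4.07e-05). In the resorption list Gpnmb alone rose (191 ± 168 against 2.17 ± 1.11 CPM, 6.47 ± 0.84 SE, adjusted p = 7.25e-06). None of the 14 receptor genes and none of the 4 repressors passed, and Tnfrsf11a differed by 0.12 ± 0.08 SE (adjusted p = 0.397). Among the activators 3 of 13 fell, Fos (-2.24 ± 0.54 SE, adjusted p = 0.00888), Jun (-1.43 ± 0.44 SE, adjusted p = 0.0378) and Junb (-1.40 ± 0.44 SE, adjusted p = 0.0392). Fos and Junb had the opposite sign in CLEC4F- macs against WD ResKCs. The WD ResKC samples enter both contrasts on opposite sides, so these signs are not independent. Fos, Jun and Junb are immediate-early genes. The summed CPM of 10 immediate-early and heat-shock genes, Fos and Jun among them, was 2781 to 14741 in SD and 1097 to 5106 in WD ResKCs. With that list's mean as a covariate the 3 were no longer called, nor with the naming scheme as one, and Jun and Junb were each lost when any of 9 single libraries was left out (SD replicates 2 to 5 and WD replicates 1 to 4 and 6). Among paralogs, Ctss fell short of the fold limit (-0.32 ± 0.08 SE, adjusted p = 0.00893) and Itga2b was lower in WD ResKCs (-2.68 ± 0.74 SE, adjusted p = 0.0209), a call lost without SD replicate 1 (-2.29). By limma-voom Adam8 was not called.

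At 12 weeks 0 of the 65 genes were called between the diets by edgeR, with 12 at an unadjusted p under 0.05, 1 called by DESeq2 (Cd9) and 0 by limma-voom. Without SD ResKC replicate 7 there were 3, Gpnmb, Cd9 and Adam8, each higher on the WD. That library was set apart for its Gpnmb, the highest of its group. Leaving it out thus favours a higher Gpnmb on the WD, and nothing is read from these calls. From 12 to 24 weeks 2 of the 65 rose in WD ResKCs and 0 fell, where 52 of the 13421 genes rose and 41 fell. They were Cd9 (1.42 ± 0.33 SE, adjusted p = 0.0173) and Tec (1.24 ± 0.34 SE, adjusted p = 0.0394), the latter lost when any of 6 single libraries was left out (12-week replicates 1 and 3 to 5, 24-week replicates 4 and 6), while Itga2b was lower (-2.69 ± 0.76 SE, adjusted p = 0.0433) but lost its call when any of 10 of the 11 libraries was left out, the exception being 24-week replicate 4. In SD ResKCs 0 of the 65 were called over time by edgeR, DESeq2 and limma-voom, with 5 at an unadjusted p under 0.05 by edgeR. For the difference of the diet effects 0 were called by edgeR (2 of all genes upward and 6 downward), 14 having an unadjusted p under 0.05, against 1 by DESeq2 (Gpnmb) and 0 by limma-voom.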

How the data were processed

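Hepatic macs were sorted on CLEC4F and TIM4 and sequenced as bulk RNA (single reads on a NextSeq500). Per the submitters' processing notes, the authors checked reads with FastQC 0.11.9, mapped them to mm10 with HISAT2 2.2.0, handled alignments with SAMtools 1.10 and counted them with featureCounts 2.0.0. The deposited values are raw counts per gene and sample, not normalized. Annotation, strand and multi-mapping settings of the counting are not given in the sources used here.

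The 13421 genes that exceeded 1 CPM in 5 samples or more entered a fit in edgeR 4.0.16 (R 4.3.3) (quasi-likelihood test, TMM factors 0.905 to 1.13, 6 group means over 35 samples), and p-values were adjusted by Benjamini-Hochberg over all genes tested. A gene passed the limits where its adjusted p lay below 0.05 and its log2 fold change beyond 1 in either direction. Levels are TMM-scaled CPM, and logs used a prior count of 2. A gene's SE is its log2 fold change over the root of its F value. The named genes were the 8 members, the called genes of 5 lists (68 genes), paralogs of members, and the 3 genes most alike to each member that varied by over 2 log2 units between group means. The members and lists were chosen with earlier results of these data known. The fit was tested on simulated data. Alternatives were DESeq2 1.42.0, limma-voom (limma 3.58.1), other filters, limits and covariates, a replicate block, and leaving out libraries. No pair of samples held identical counts. Coordinates are GENCODE M21, promoter sequence is RefSeq on GRCm38.p6, both of the mm10 build.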

Additional observations from a re-analysis of the deposited data

Results flagged for a closer look

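In 5 of 41 sets of group values tested, 1 sample lay apart from the rest by Dixon's criterion (its gap over the group's range). For normally spread values chance gives about 1 in 20, and low counts need not be spread so. The ratios were taken on log2 CPM, so the CPM given here do not yield them. Acp5 was 974 CPM in SD ResKC replicate 6 at 24 weeks and at most 760.3 CPM in the other five (ratio 0.651). Acp5 was 432 CPM in moKC replicate 1 and at least 773 CPM in the other four (ratio 0.874). Ctsk was 0.376 CPM, 5 counts, in SD ResKC replicate 2 at 12 weeks and at most 0.0737 CPM in the other six (ratio 0.68). Itgb3 was 0.551 CPM in WD ResKC replicate 6 at 24 weeks and at least 2.56 CPM in the other five (ratio 0.698). Nfatc1 was 69.5 CPM in moKC replicate 3 and at least 80.2 CPM in the other four (ratio 0.713).

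The diet effect on Itga2b, the alpha chain that pairs with Itgb3 on platelets, differed between the times by -4.446 ± 1.00 SE on the log2 scale (edgeR interaction, adjusted p = 0.0387). Its mean was 0.251 CPM in SD and 0.874 CPM in WD ResKCs at 12 weeks, and 0.864 CPM in SD and 0.124 CPM in WD ResKCs at 24 weeks, all at low counts. The call was lost when any of 12 single libraries was left out, with differences between -4.86 and -4.06: SD replicates 3 and 5 and WD replicates 3 and 5 at 12 weeks, and SD replicates 1, 2, 4 and 6 and WD replicates 1, 2, 3 and 6 at 24 weeks.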

How the results depend on the processing

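Counts of members past the limits changed most at 12 weeks between the diets, from 0 to 2 by DESeq2 and to 3 without the 4 libraries that stand apart, a set chosen after seeing the data. For CLEC4F- macs against moKCs the count of 1 became 3 by limma-voom and 2 with no fold limit, with only the groups compared, with hepatocyte genes as a covariate or without the 4 libraries. Against WD ResKCs the count of 3 fell to 1 at limits of 1.5 and 0.01 and to 2 with no filter (Ocstamp lost). It rose to 4 by limma-voom, by library size alone, with only the groups compared, with hepatocyte genes as a covariate or without the 4 libraries (Atp6v0d2 added), and with no fold limit (Nfatc1 added). Between the diets at 24 weeks it fell from 3 to 2 by limma-voom (Atp6v0d2 lost) and with only the groups compared (Dcstamp lost). From 12 to 24 weeks on the WD it went from 0 to 1 by DESeq2 (Itgb3), and for the difference of diet effects from 0 to 1 (Dcstamp).

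Of the pathway genes, DESeq2 called 1 in place of 2 (moKCs against ResKCs), 1 in place of 0 at 12 weeks and 1 in place of 0 for the difference of diet effects. limma-voom called 0 in place of 2 (moKCs against ResKCs) and 1 in place of 2 (WD over time). No filter gave 1 in place of 2 (WD over time). At limits of 1.5 and 0.01 there were 3 in place of 8 (CLEC4F- macs against moKCs), 1 in place of 2, 5 in place of 8 (diets at 24 weeks) and 0 in place of 2. With no fold limit there were 41 in place of 13, 25 in place of 8 and 18 in place of 8. With only the groups compared there was 1 in place of 2 both for moKCs against ResKCs and for WD over time. With the immediate-early genes or the naming scheme as a covariate there were 5 in place of 8 between the diets at 24 weeks, Jun turning to 0.05279 with the former, and 1 in place of 2 for WD over time with the latter. Without the 4 libraries there were 4 in place of 2 (moKCs against ResKCs), 3 in place of 0 at 12 weeks and 1 in place of 2 for WD over time. The cause was not tested.

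Whether replicate numbers pair the samples was not settled. The mean correlation of same-numbered samples was -0.112 to 0.118 over the comparisons, and in none of them was every pair over 0.1. For CLEC4F- macs against WD ResKCs the 6 pairs lay between 0.0242 and 0.263. Weak correlations of this kind cannot exclude pairing. With the replicate block 5 in place of 8 pathway genes were called for CLEC4F- macs against moKCs, 1 in place of 2 for WD over time, and 1 in place of 0 members there (Atp6v0d2). It also gave 4 in place of 3 members against WD ResKCs (Atp6v0d2 added) and 2 in place of 3 between the diets at 24 weeks (Dcstamp lost), and called Car2 and Mmp14 in place of Mmp9 and Sirpb1a between moKCs and ResKCs.

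Leaving out single libraries gave 1 to 4 members past the limits for CLEC4F- macs against ResKCs, 1 to 2 against moKCs and 0 to 3 between the diets at 12 weeks. Pathway genes called ranged over 12 to 13, 6 to 9, 1 to 3 (moKCs against ResKCs), 0 to 3 (diets, 12 weeks), 6 to 8 (diets, 24 weeks) and 1 to 2 (WD over time). Oscar, under the 3-count floor throughout, cannot be compared at this depth.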
